A study of Mus musculus with 8 samples.

Results

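The expression of 10 interferon-stimulated genes was followed in splenic CD4+ T cells of mice born to cadmium-exposed or unexposed parents: Isg15, Usp18, Ifit1, Ifit3, Rsad2, Oasl2, Bst2, Gbp2, Ifih1 and Rtp4. They were chosen by name, as the rows of the expression table whose gene symbol equals one of these, and 10 of the 27179 genes in the table matched. All 10 passed the filter on low values. Of these genes, 6 fell after the cells were stimulated and 1 rose, against 7.17% and 11.5% of the 12605 genes tested in control offspring. In Cd offspring the counts were the same, against 7.24% and 11.4%. Without 1 library of unstimulated control cells (replicate 6), 3 fell in control offspring. None passed a test for prenatal Cd, against 0.896% of the genes tested in unstimulated cells and 0.0% in stimulated cells.

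In all, 8 RNA-seq libraries were analysed, 2 in each of 4 groups. All mice were of the strain C.Cg-Foxp3tm2Tch/J, which carries a GFP reporter in the Foxp3 gene, and were 8 weeks old. In the Cd groups, both parents had been given drinking water with 10 ppm CdCl2 before mating, the dams stayed on it through gestation, and the water was replaced at birth. In the control (Ctr) groups the water was unspiked. The offspring had unspiked water after birth. CD4+ T cells were purified from the spleen by negative selection and, for RNA sequencing, sorted further by flow cytometry, described by the study as CD25- conventional T cells, and either taken at 0 hours (Unstim) or cultured for 16 hours with anti-CD3/CD28 beads (Stim), which engage the T cell receptor and its costimulator. Stimulation and 16 hours in culture cannot be told apart, since no unstimulated cells were cultured for that time. The replicates carry the numbers 6 and 7 in each group. The labels do not say which libraries come from 1 animal, so p values measure the spread between these libraries. The libraries held 15542732 to 25486791 reads counted on genes, and the 2 libraries of a group correlated at r = 0.983 to 0.990 across genes.

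T cell markers were abundant. Cd3e, a subunit of the T cell receptor complex, had a mean of 382 RPKM, that is reads per kilobase of transcript scaled to the reads of the library, the B cell marker Ms4a1 was at 0 in all libraries while Cd79a was at 2.87 to 4.73 RPKM, and of the CD8 T cell markers Cd8a stayed at or below 0.160 RPKM while Cd8b1 had a mean of 10.4 RPKM. The labels do not give the sex of the mice. Xist, which is expressed from the inactive X chromosome, was at 49.3 to 67.1 RPKM in all 8 libraries. The 4 other genes on the list of sex markers, Ddx3y, Eif2s3y, Kdm5d and Uty of the Y chromosome, stayed below 1 RPKM in all libraries. Of the regulatory T cell markers, Foxp3, the lineage factor, was at 4.48 to 7.69 RPKM over the 8 libraries and did not pass the test for stimulation, while Il2ra, which encodes CD25, went from 1.97 and 1.80 RPKM in Ctr Unstim to 117 and 97.6 in Ctr Stim. Il2ra and Ctla4 rose and Foxp3 and Ikzf2 did not pass, of the 4 on that list. All 7 activation genes on a fixed list rose in both control and Cd offspring. Irf4, a transcription factor induced through the T cell receptor, went from 2.43 and 2.86 RPKM in Ctr Unstim to 525 and 561 RPKM in Ctr Stim. Il2 was at 0.703 and 0.517 RPKM in Ctr Unstim and at 53.0 and 50.2 RPKM in Ctr Stim. In Cd Unstim it was at 0.271 and 0.308 RPKM (log2 -0.86 against Ctr Unstim, interval -1.18 to -0.53, adjusted p in limma 0.0409), and in Cd Stim at 43.9 and 47.2 RPKM (log2 -0.18 against Ctr Stim, adjusted p 1.0). Il2 passed the filter on low values only through its stimulated libraries, and the model shares its estimate of the spread over the 4 groups. The difference between the unstimulated groups lies at low values and is therefore not taken as a result.

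Interferons are cytokines that cells release on infection. Type I interferon binds the Ifnar1 and Ifnar2 receptor and activates a protein complex that includes Stat2 and Irf9 and binds a DNA element called the ISRE. Interferon gamma binds Ifngr1 and Ifngr2, and its signal acts through an element called GAS. The genes switched on in this way block viral entry, translation and replication, sense viral RNA, or attack the vacuoles of intracellular microbes, and many are also expressed at a basal level in resting cells.

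RefSeq promoter windows (GRCm38.p6, 250 bases before to 50 bases after a transcript start) were found for 8 of the 10 genes. The set of windows used here had no entry for Usp18 and Rtp4, although RefSeq gives a span for both genes. The ISRE core was searched on both strands as GAAANNGAAA, which reads TTTCNNTTTC on the other strand, and the GAS core as TTCNNNGAA, which is its own reverse complement. Of the 8 windows, 7 (87.5%) held the ISRE core, against 1131 of all 32851 windows in the table (3.44%). They are shown because they include 4 genes that fell after stimulation (Isg15, Ifit1, Rsad2 and Ifih1), Ifit3 and Bst2, which did not pass the test, and Gbp2, which rose. Each is written in the direction of its gene, with the ISRE core in capitals.
Isg15: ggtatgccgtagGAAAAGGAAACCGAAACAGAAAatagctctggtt
Ifit1: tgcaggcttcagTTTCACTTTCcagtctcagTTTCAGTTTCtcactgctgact
Ifit3: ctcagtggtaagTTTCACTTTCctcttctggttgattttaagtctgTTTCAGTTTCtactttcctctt
Rsad2: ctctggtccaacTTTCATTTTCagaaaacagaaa
Ifih1: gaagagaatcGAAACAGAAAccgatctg
Bst2: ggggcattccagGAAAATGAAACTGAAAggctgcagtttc
Gbp2: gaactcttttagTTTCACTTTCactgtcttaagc

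The stretches lie at chr4:156200863-156200908 (minus strand) for Isg15, chr19:34640773-34640825 (plus) for Ifit1, chr19:34583361-34583428 (plus) for Ifit3, chr12:26456551-26456584 (minus) for Rsad2, chr2:62646206-62646233 (minus) for Ifih1, chr8:71537575-71537614 (minus) for Bst2 and chr3:142620592-142620625 (plus) for Gbp2. Isg15 held 3 overlapping copies between positions -78 and -57 from the start. Ifit1 and Ifit3 each held 2 separate copies, and both pairs read TTTCACTTTC and TTTCAGTTTC. Gbp2 held TTTCACTTTC at -59 to -50, the same 10 letters as the first copy in Ifit1 and Ifit3. The copy in Ifih1 lay after the start, at 33 to 42. The window of Oasl2 did not hold these letters. The protein-coding genes with no stretch shown span chr5:114896926-114912245 (Oasl2), chr6:121245906-121270917 (Usp18) and chr16:23520219-23614222 (Rtp4). The GAS core occurred in 1 of the 8 windows, that of Bst2, where TTCCAGGAA at -136 to -128 overlaps the first ISRE copy, against 2726 of all windows (8.30%). A match is a description of the letters of the reference genome, which were not read from these mice, and not of a bound site.

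The first comparison asked how the genes differed between unstimulated and stimulated cells. In control offspring 6 of the 10 fell (Isg15, Rsad2, Ifit1, Ifih1, Usp18 and Rtp4), against 7.17% of the 12605 genes tested that fell. Gbp2 rose, against 11.5% of the genes tested that rose. In Cd offspring the same 6 genes fell, against 7.24% of the genes tested, and Gbp2 rose, against 11.4%. Over the 10 genes the log2 fold changes had a median of -1.06 in control and -1.39 in Cd offspring, where the medians over all genes tested were 0.070 and 0.050. A gene was counted here at an adjusted p under 0.01 and a change of more than 2-fold in limma, on log2(RPKM + 0.1), which understates the change of low genes. In bulk RNA, fewer cells with a transcript and less transcript per cell cannot be told apart.

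**Figure D1:**
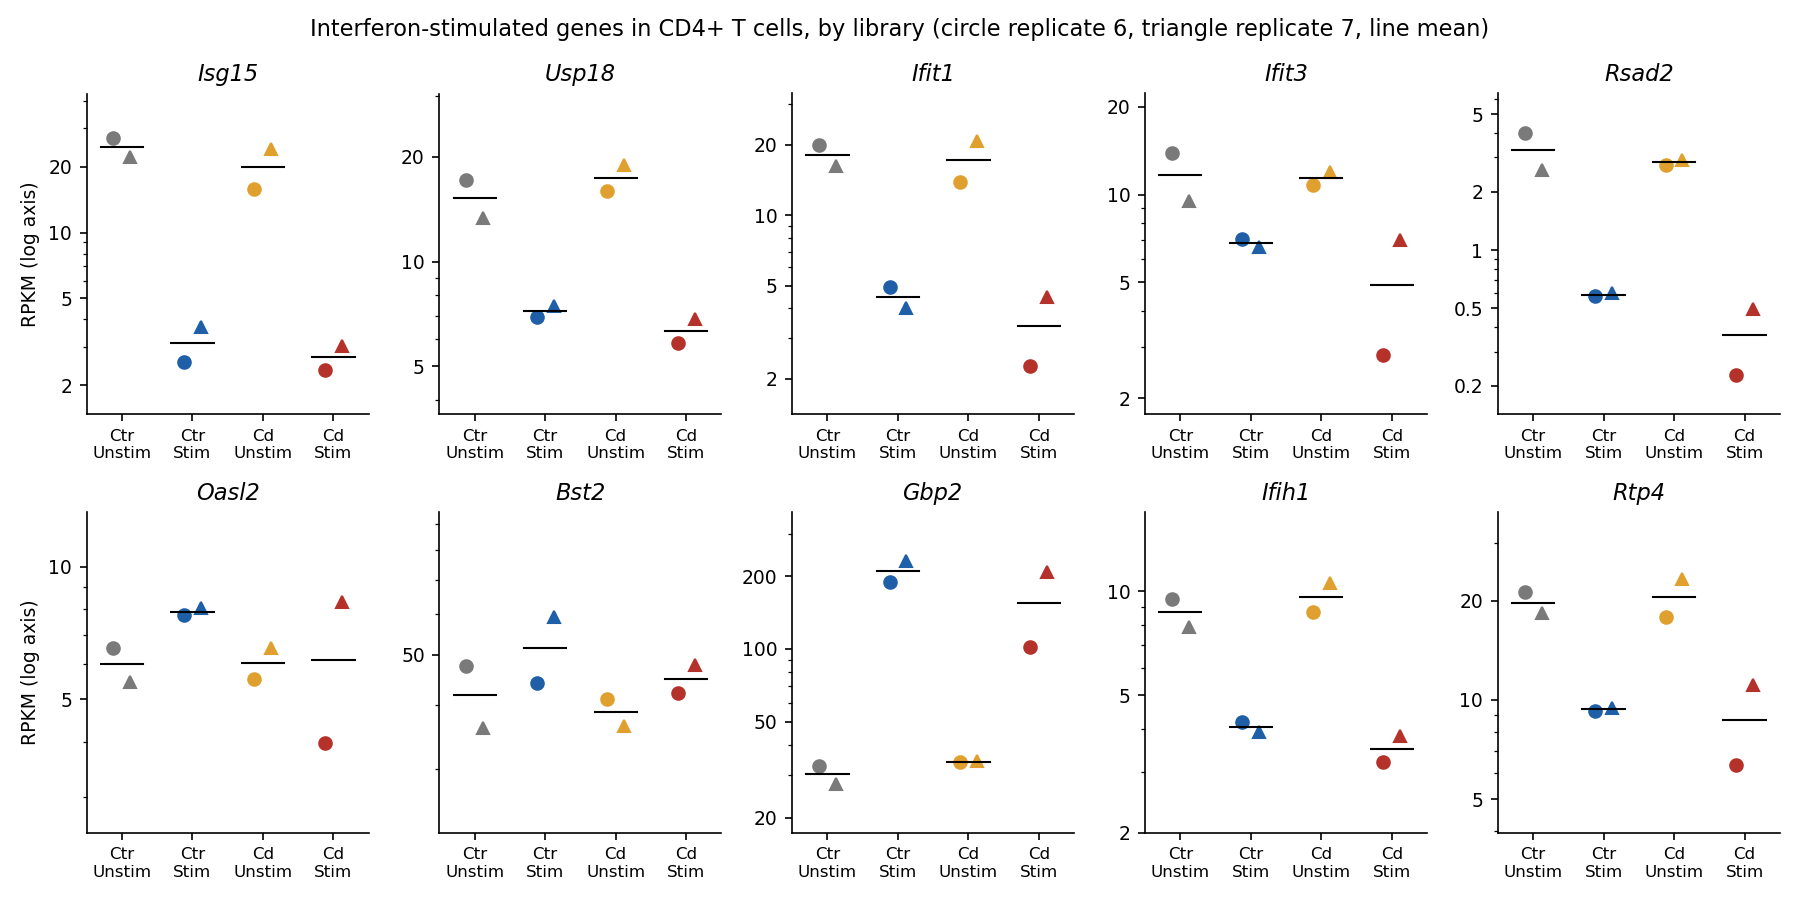
RPKM of each gene on a log axis in the 4 groups, with a circle for replicate 6, a triangle for replicate 7 and a line at the mean of the group. Isg15, Usp18, Ifit1, Ifit3, Rsad2, Ifih1 and Rtp4 were lower in every stimulated library than in every unstimulated library, Gbp2 was higher, and Bst2 and Oasl2 overlapped.

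Isg15 encodes a ubiquitin-like protein that is attached to viral and host proteins, and Usp18 encodes the protease that removes it and also restrains signalling at the type I interferon receptor. Isg15 was at 27.1 and 22.2 RPKM in Ctr Unstim, 15.9 and 24.2 in Cd Unstim, 2.55 and 3.67 in Ctr Stim, and 2.35 and 3.01 in Cd Stim. All 4 unstimulated libraries lay far above all 4 stimulated ones. It fell in both control offspring (7.80-fold lower, log2 -2.96, 95% confidence interval -3.53 to -2.39, adjusted p = 2.79e-05) and Cd offspring (7.15-fold lower, log2 -2.84, interval -3.41 to -2.27, adjusted p = 3.57e-05). The stimulated values rest on 30 to 58 reads a library.

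Usp18 was at 17.1 and 13.3 RPKM in Ctr Unstim, 15.9 and 19.0 in Cd Unstim, 6.94 and 7.46 in Ctr Stim, and 5.83 and 6.85 in Cd Stim. The stimulated libraries were all lower, by less than for Isg15. The change was 2.08-fold in control offspring (log2 -1.06, interval -1.40 to -0.72, adjusted p = 0.000428) and 2.72-fold in Cd offspring (log2 -1.44, interval -1.78 to -1.10, adjusted p = 8.18e-05).

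Among the antiviral effectors, Ifit1 binds viral RNA that lacks the cap structure of host mRNA, Ifit3 is its partner, and Rsad2 (viperin) makes a nucleotide that ends viral RNA chains. Ifit1 was at 19.9 and 16.2 RPKM in Ctr Unstim, 13.9 and 20.7 in Cd Unstim, 4.95 and 4.01 in Ctr Stim, and 2.26 and 4.46 in Cd Stim. It fell 3.96-fold in control offspring (log2 -1.99, interval -2.73 to -1.25, adjusted p = 0.000938) and 5.20-fold in Cd offspring (log2 -2.38, interval -3.12 to -1.64, adjusted p = 0.000365). The stimulated libraries were all below the unstimulated ones, and the lowest value was that of Cd Stim replicate 6.

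Rsad2 had the lowest level of the 10 genes, with a mean of 1.77 RPKM over the 8 libraries. It was at 4.0 and 2.58 RPKM in Ctr Unstim, 2.73 and 2.92 in Cd Unstim, 0.578 and 0.598 in Ctr Stim, and 0.228 and 0.498 in Cd Stim, the last 4 values from 19 to 48 reads. Every stimulated library was below every unstimulated one. It fell 4.81-fold in control offspring (log2 -2.27, interval -3.01 to -1.52, adjusted p = 0.000482) and 6.61-fold in Cd offspring (log2 -2.72, interval -3.47 to -1.98, adjusted p = 0.000181).

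Ifit3 was at 13.9 and 9.49 RPKM in Ctr Unstim, 10.8 and 12.0 in Cd Unstim, 7.05 and 6.61 in Ctr Stim, and 2.82 and 6.99 in Cd Stim. The stimulated libraries were lower, but the gene did not pass the test in control offspring (log2 -0.74, interval -1.61 to 0.13, adjusted p = 0.117) or in Cd offspring (log2 -1.34, interval -2.20 to -0.47, adjusted p = 0.0143). Its copy Ifit3b, with which it can share reads, was at 3.84 and 2.62 RPKM in Ctr Unstim and at 2.56 and 2.38 in Ctr Stim. Ifit2, a further member of the family, passed the test, with a log2 fold change of -1.06 in control offspring (adjusted p = 3.44e-05).

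Oasl2 belongs to the family of oligoadenylate synthetases, which sense double-stranded RNA, and Bst2 (tetherin) holds budding viruses at the cell surface. Oasl2 was at 6.54 and 5.46 RPKM in Ctr Unstim, 5.55 and 6.55 in Cd Unstim, 7.78 and 8.05 in Ctr Stim, and 3.97 and 8.33 in Cd Stim. The Ctr Stim libraries were above the Ctr Unstim libraries, and the Cd Stim libraries lay on both sides of the Cd Unstim libraries. Oasl2 did not pass in control (log2 0.40, interval -0.30 to 1.09, adjusted p = 0.271) or Cd offspring (log2 -0.06, interval -0.76 to 0.63, adjusted p = 0.860).

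Bst2 was at 47.6 and 36.0 RPKM in Ctr Unstim, 41.0 and 36.4 in Cd Unstim, 44.0 and 59.4 in Ctr Stim, and 42.2 and 47.7 in Cd Stim. The groups overlapped in control offspring and not in Cd offspring, and its log2 fold changes were 0.30 (interval -0.10 to 0.71, adjusted p = 0.156) in control and 0.21 (interval -0.19 to 0.62, adjusted p = 0.302) in Cd offspring. The intervals for Bst2 hold no 2-fold change in either direction.

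Gbp2 encodes a guanylate-binding protein, a GTPase that coats and breaks the vacuoles of intracellular microbes and is strongly induced by interferon gamma. It was at 32.6 and 27.7 RPKM in Ctr Unstim, 33.9 and 34.3 in Cd Unstim, 189 and 231 in Ctr Stim, and 102 and 208 in Cd Stim. All stimulated libraries were higher, and Cd Stim replicate 6 was the lowest of them. The rise was 6.94-fold in control offspring (log2 2.79, interval 2.12 to 3.47, adjusted p = 8.93e-05) and 4.27-fold in Cd offspring (log2 2.09, interval 1.42 to 2.77, adjusted p = 0.000433).

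Ifih1 (MDA5) senses long double-stranded RNA in the cytoplasm and starts interferon production. It was at 9.51 and 7.89 RPKM in Ctr Unstim, 8.70 and 10.6 in Cd Unstim, 4.19 and 3.92 in Ctr Stim, and 3.20 and 3.81 in Cd Stim, with no overlap between unstimulated and stimulated libraries. It fell 2.11-fold in control offspring (log2 -1.08, interval -1.41 to -0.74, adjusted p = 0.000358) and 2.70-fold in Cd offspring (log2 -1.43, interval -1.77 to -1.10, adjusted p = 7.86e-05).

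Rtp4, a chaperone that helps receptors reach the cell surface, was at 21.2 and 18.3 RPKM in Ctr Unstim, 17.8 and 23.2 in Cd Unstim, 9.28 and 9.48 in Ctr Stim, and 6.33 and 11.1 in Cd Stim. Its stimulated libraries were all lower. It fell 2.08-fold in control offspring (log2 -1.06, interval -1.63 to -0.49, adjusted p = 0.00612) and 2.40-fold in Cd offspring (log2 -1.27, interval -1.83 to -0.70, adjusted p = 0.00257).

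**Figure D2:**
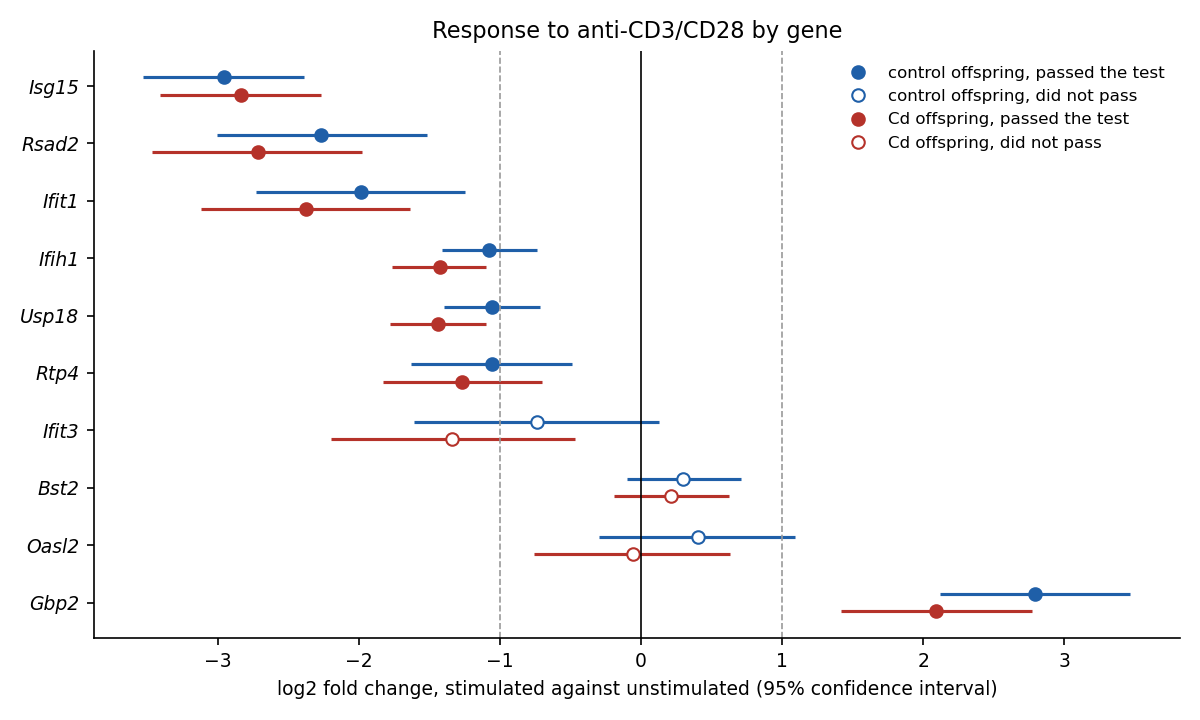
Log2 fold change of each gene between stimulated and unstimulated cells in control (blue) and Cd (red) offspring, with 95% confidence intervals. Filled points passed the test, dashed lines mark a 2-fold change, and the genes run from Isg15 (-2.96 in control offspring) to Gbp2 (2.79).

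Usp18, Ifih1 and Rtp4 lay close to the 2-fold limit in control offspring. Without Ctr Unstim replicate 6 their log2 fold changes there were -0.88, -0.95 and -0.95, and the number of the 10 genes that fell was 3. The call of Rtp4 was the least stable of the 10: it was lost in control offspring when any of the 4 libraries compared was left out (adjusted p in limma 0.0201 to 0.0409), and in Cd offspring without Cd Stim replicate 6 (log2 -0.87) or without Cd Unstim replicate 7 (adjusted p 0.0182).

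The order of levels changed with stimulation. In Ctr Unstim the means ran from 41.8 ± 8.20 RPKM (SD, n = 2) for Bst2 through Gbp2 (30.2 ± 3.48), Isg15 (24.7 ± 3.47), Rtp4 (19.7 ± 2.06), Ifit1 (18.1 ± 2.58), Usp18 (15.2 ± 2.69), Ifit3 (11.7 ± 3.09), Ifih1 (8.70 ± 1.14) and Oasl2 (6.0 ± 0.767) to Rsad2 (3.29 ± 1.0). From Rtp4 to Ifih1 each gene's libraries overlapped with those of the next. In Ctr Stim, Gbp2 came first (210 ± 29.9 RPKM), then Bst2 (51.7 ± 10.9), and the other genes lay between 9.38 ± 0.137 (Rtp4) and 0.588 ± 0.0140 (Rsad2), with Isg15 at 3.11 ± 0.791, the lowest after Rsad2.

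Other genes of the pathway moved in both directions. Of 68 other genes induced by type I interferon that were tested, from a list of 72, 28 fell and 3 rose in control offspring (median log2 fold change -0.82), and 30 fell and 3 rose in Cd offspring (median -0.85). Mx1, a GTPase that blocks influenza virus, had a log2 fold change of -3.38 in control offspring and was at 2.10 and 1.09 RPKM in Ctr Unstim and at 0.0239 and 0.0953 in Ctr Stim. Mx2 fell by 3.02 on the log2 scale, from 2.96 and 2.23 RPKM to 0.425 and 0.106. Slfn5 fell by as much from a higher level, 58.4 and 52.6 RPKM to 7.25 and 6.30. In Cd offspring Oas2 (log2 -3.47), Mx2 (-3.29) and Oasl1 (-3.25) fell. These are values of log2(RPKM + 0.1), on which the order of genes near 0 depends on the pseudocount.

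In both control and Cd offspring 3 genes of that list rose. Ifitm2, which blocks viral entry, was at 0.443 and 0.294 RPKM in Ctr Unstim and at 6.98 and 8.20 in Ctr Stim (log2 4.05). Gm12250, which encodes an immunity-related GTPase, was at 9.90 and 9.31 and then at 39.1 and 40.4 RPKM. Apol9b was at 0.662 and 0.346 and then at 1.90 and 1.58 RPKM.

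Gbp2 belongs to the interferon-inducible GTPases. Of 16 others tested, 11 rose and none fell in control offspring (median log2 1.27), and 7 rose and none fell in Cd offspring (median 0.84). All 16 had a positive log2 fold change in control offspring, the smallest being that of Gbp9 (0.10), and in Cd offspring 15 did, with Gbp9 at -0.24. Of the 68 other type I genes, 58 had a negative log2 fold change in control and 61 in Cd offspring. Iigp1, which attacks the vacuoles of intracellular parasites, was at 11 and 8.32 RPKM in Ctr Unstim and at 56.2 and 56.3 in Ctr Stim (log2 2.54, adjusted p = 0.000303). Gbp10 was at 3.29 and 2.52 and then at 14.6 and 15.1 RPKM (log2 2.32), and Gbp3 at 4.19 and 3.49 and then at 18.4 and 20.2 RPKM (log2 2.30). In Cd offspring the log2 fold changes of Iigp1, Gbp3 and Gbp10 were 1.98, 1.78 and 1.57. Without Cd Stim replicate 6 the number that rose in Cd offspring was 10, and without Cd Stim replicate 7 it was 4. None of the 16 passed the interaction test of control against Cd offspring in limma. All 16 had a negative difference in response, Cd minus control (median log2 -0.47), as did 6666 of the 12605 genes tested. Without Cd Stim replicate 6, 15 of the 16 were negative (median -0.14). Several of these genes have close copies, so their reads may be split between them. Of 11 promoter windows found for 10 of the GTPase genes, 9 held the ISRE core (81.8%) and 6 held the GAS core (54.5%). Of 80 windows found for 57 of the other type I genes, 27 (33.8%) and 10 (12.5%) held them. These are shares of windows and not of genes, since a gene can have several windows or none.

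**Figure D3:**
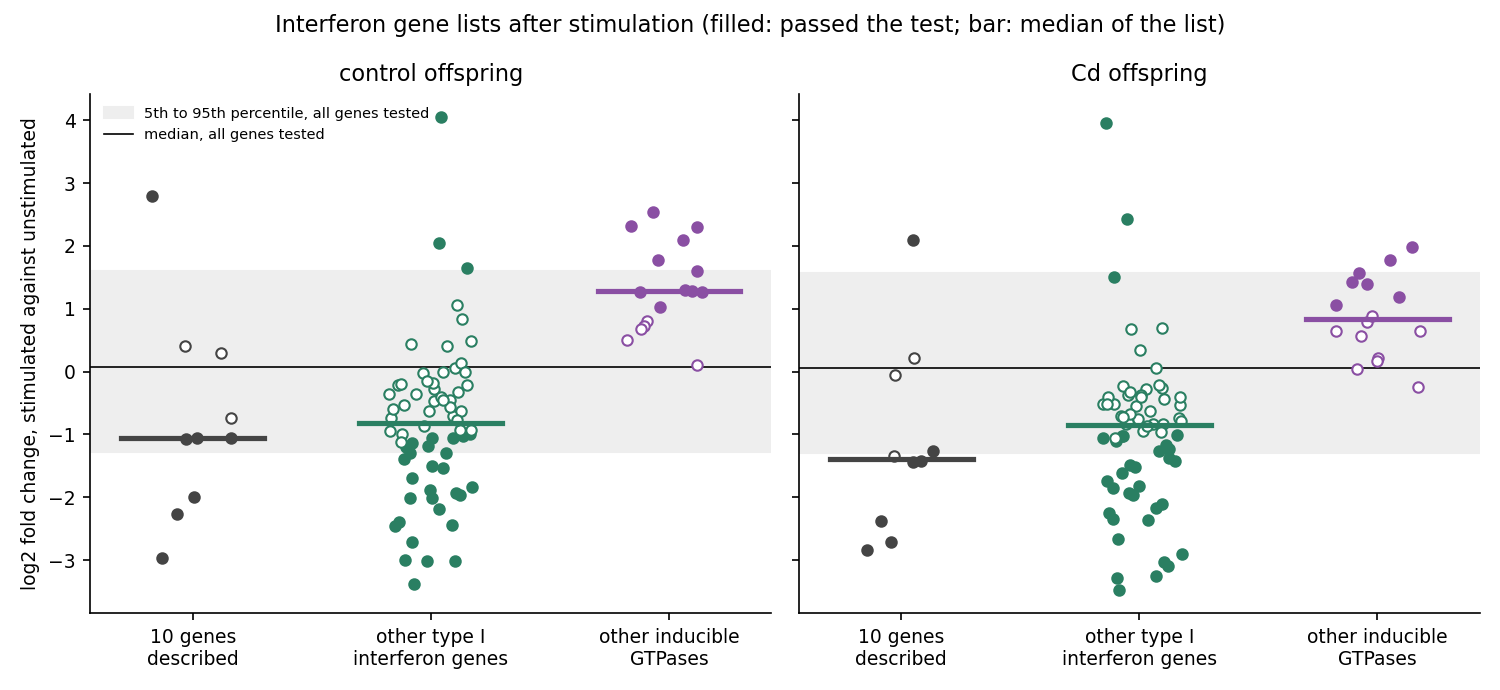
Log2 fold change after stimulation in control (left) and Cd (right) offspring for the 10 genes, the 68 other type I interferon genes and the 16 other GTPases, with a bar at each median, filled points where the test was passed, and a grey band from the 5th to the 95th percentile of all genes tested. The medians in control offspring are -1.06, -0.82 and 1.27.

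Of 20 interferon genes, 15 were at 0 in all 8 libraries, among them Ifnb1. No read was counted on these genes, which still allows for an expected count of up to 3 reads in a library. Ifnab was at 0.166 and 0.0916 RPKM in Ctr Unstim and at 0 in the other libraries, Ifna13 was at 0.0594 RPKM in Cd Unstim replicate 7 and at 0 in the others, and Ifnz stayed at or below 0.0999 RPKM. These 3 did not pass the filter on low values. The many near-identical Ifna genes can lose reads that align to several places, and how the authors treated such reads is not given in the sources used here. Ifng, the only type II interferon, was at 9.03 and 7.57 RPKM in Ctr Unstim, 5.84 and 7.62 in Cd Unstim, 2.93 and 3.02 in Ctr Stim, and 1.28 and 2.37 in Cd Stim. It fell in control (log2 -1.44, interval -2.06 to -0.83, adjusted p = 0.00195) and Cd offspring (log2 -1.87, interval -2.49 to -1.26, adjusted p = 0.000498). Ifnk ranged from 0.188 to 1.48 RPKM and did not pass.

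Among the receptors and signalling genes, 1 of 11 tested passed in control and none in Cd offspring. Jak2, a kinase of the interferon gamma receptor, was at 41.4 and 40.9 RPKM in Ctr Unstim and at 87.4 and 86.1 in Ctr Stim (log2 1.07, adjusted p = 5.20e-06), and its log2 fold change in Cd offspring was 0.99, just under 2-fold. The type I receptor subunits Ifnar1 (log2 -0.52) and Ifnar2 (-0.51) and the interferon gamma receptor subunits Ifngr1 (-0.72) and Ifngr2 (-0.05) did not pass in control offspring, nor did Irf9 (-0.63) or Stat2 (-0.20). Stat2 was at 18.6 and 18.5 RPKM in Ctr Unstim and at 15.7 and 16.5 in Ctr Stim. In control offspring 4 of 14 tested genes for sensing nucleic acids fell, among them the RNA sensor Ddx58 (RIG-I), from 37.8 and 37.2 to 10.2 and 9.89 RPKM, Dhx58, from 9.15 and 8.60 to 2.43 and 2.41, and Irf7, which drives type I interferon genes, from 43.6 and 36.6 to 12.0 and 12.6. Irf5 rose, from 1.12 and 1.26 to 2.61 and 2.73 RPKM. Ddx58, Dhx58, Irf7, Irf9 and Stat2 are also on the list of other type I genes, so the counts of these lists are not separate. Of 11 negative regulators, Cish rose (log2 3.55) and Socs3 fell (log2 -1.54) in control offspring.

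Of 6 markers of natural killer cells tested from a list of 7, 4 fell in control and in Cd offspring, and their summed level was 40.7 and 45.1 RPKM in Ctr Unstim, 38.8 and 43.4 in Cd Unstim, 8.34 and 8.18 in Ctr Stim, and 9.10 and 9.52 in Cd Stim. The most abundant was Klrd1, with a mean of 10.0 RPKM, while the defining marker Ncr1 was at 0 in 7 libraries and at 0.0311 RPKM in the other. Memory T cells can express some of these genes too, and which cells they came from was not tested. The sequenced cells had been sorted by flow cytometry, with gates that are not given in the sources used here. The part of other cells in the fall of the interferon-stimulated genes was not tested. The markers of plasmacytoid dendritic cells, the main producers of type I interferon, summed to 26.8 and 26.6 RPKM in Ctr Unstim and to 16.8 and 18.5 in Ctr Stim. Most of that sum was Pacsin1, with a mean of 18 RPKM, and the defining marker Siglech was at 0 in all libraries. Of the 8 markers 3 passed the filter and were tested, and 1 of these fell, Ccr9. The B cell markers summed to 3.86 to 5.47 RPKM, mostly Cd79a (3.78 RPKM), and the myeloid markers to 1.91 to 3.79 RPKM, with Fcgr3 the most abundant (1.29 RPKM) and Cd14, S100a8 and S100a9 at 0. In the myeloid list Itgam fell, from 1.85 and 1.74 to 0.261 and 0.329 RPKM in control offspring.

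The second question was whether prenatal Cd shifted these genes. In unstimulated cells none of the 10 passed the test in limma at an adjusted p under 0.05, against 0.896% of the genes tested, and none had an unadjusted p under 0.05 in limma or in limma voom on recovered reads. The log2 fold changes ran from -0.32 (Isg15, interval -0.89 to 0.25) to 0.20 (Usp18, interval -0.14 to 0.54). The widest interval was that of Ifit3 (-0.88 to 0.86), and the narrowest that of Ifih1 (-0.19 to 0.48). The libraries of the 2 groups overlapped for 9 of the genes. For Gbp2 both Cd libraries (33.9 and 34.3 RPKM) lay above both controls (32.6 and 27.7 RPKM), as was so for 22.3% of the genes tested, with a log2 fold change of 0.18 (interval -0.49 to 0.85).

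In stimulated cells all 10 genes were lower on average in Cd offspring, and none passed the test in limma, against 0.0% of the genes tested. The log2 fold changes ran from -0.63 (Rsad2, interval -1.38 to 0.11) to -0.16 (Rtp4, interval -0.73 to 0.41), with a median of -0.33, and 6819 of the 12605 genes tested were negative. No gene of the 10 had an unadjusted p under 0.05 in limma, where 414 genes tested had. In limma voom Gbp2 had an unadjusted p of 0.034 and an adjusted p of 0.998. For Rsad2, Usp18 and Ifih1 both Cd libraries lay below both controls, as was so for 20.6% of the genes tested.

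The size of the median rested on Cd Stim replicate 6, which was lower than Cd Stim replicate 7 for all 10 genes. Ifit3 was at 2.82 against 6.99 RPKM, Oasl2 at 3.97 against 8.33, Gbp2 at 102 against 208, and Ifit1 at 2.26 against 4.46. The median difference was -0.83 on the log2 scale, against 0.01 over all genes tested. It was -0.66 for the 16 other GTPases, all of which were lower in replicate 6, and -0.21 for the 68 other type I genes. Without Cd Stim replicate 6 the median of the 10 genes between Cd and control was -0.02, and without Cd Stim replicate 7 it was -0.76. Without replicate 6 the log2 fold changes of 6 genes were still negative (Rsad2, Bst2, Ifih1, Usp18, Isg15 and Gbp2), and those of Ifit1, Ifit3, Oasl2 and Rtp4 were positive. The read total of Cd Stim replicate 6 (21987821) was within the range of the other libraries, and its summed activation markers were 1500 RPKM, against 1560 to 1610 in the other stimulated libraries.

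**Figure D4:**
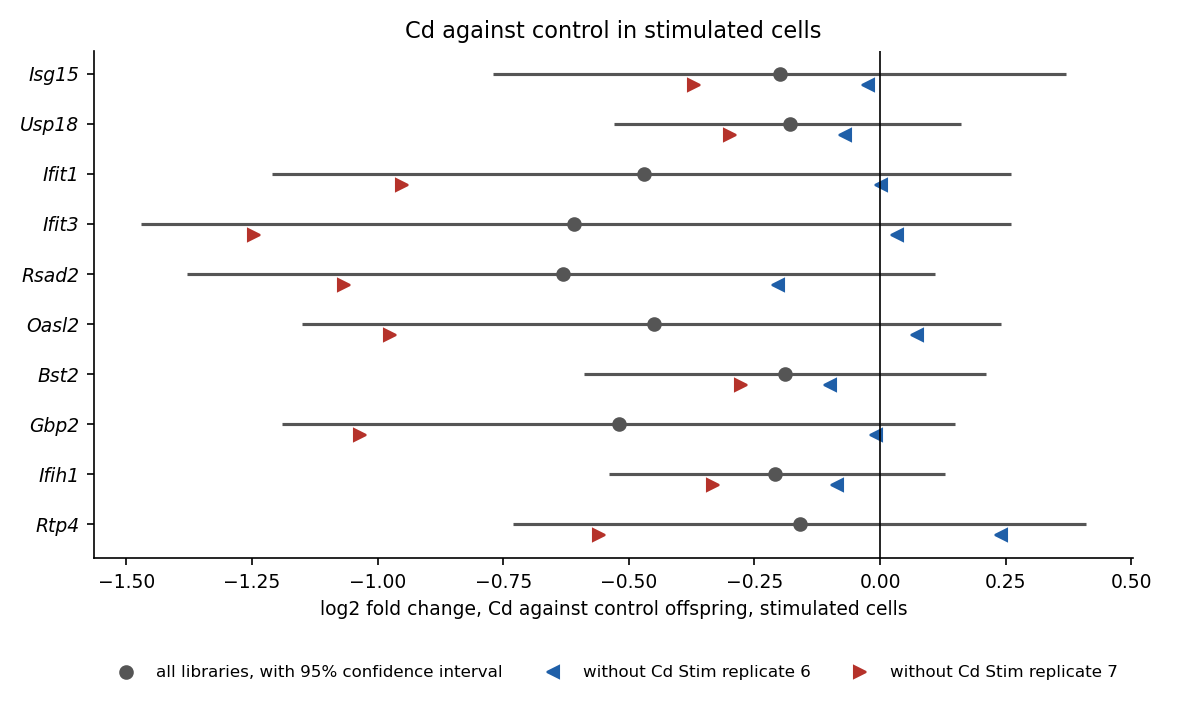
Log2 fold change between Cd and control offspring in stimulated cells for each gene, with all libraries (grey, 95% confidence interval), without Cd Stim replicate 6 (blue) and without Cd Stim replicate 7 (red). All 10 intervals hold 0, and the points without replicate 6 lie between -0.20 and 0.24.

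In the unstimulated groups too most of the genes differed in 1 direction between the libraries. In Ctr Unstim all 10 were higher in replicate 6, by a median of 0.29 on the log2 scale, where the median over all genes tested was 0.00. In Cd Unstim 9 of the 10 were lower in replicate 6, by a median log2 difference of -0.25, where 45.8% of all genes tested were lower. Bst2 was the exception. In Ctr Stim the genes went both ways: 7 of the 10 were lower in replicate 6, as were 52.4% of all genes tested, with a median of -0.05, and Ifit1 differed by 0.30 while Isg15 differed by -0.51 on the log2 scale. The 16 other GTPases were lower in replicate 6 in 16 of 16 cases in Ctr Stim and in Cd Unstim, and in 3 of 16 in Ctr Unstim.

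**Figure D5:**
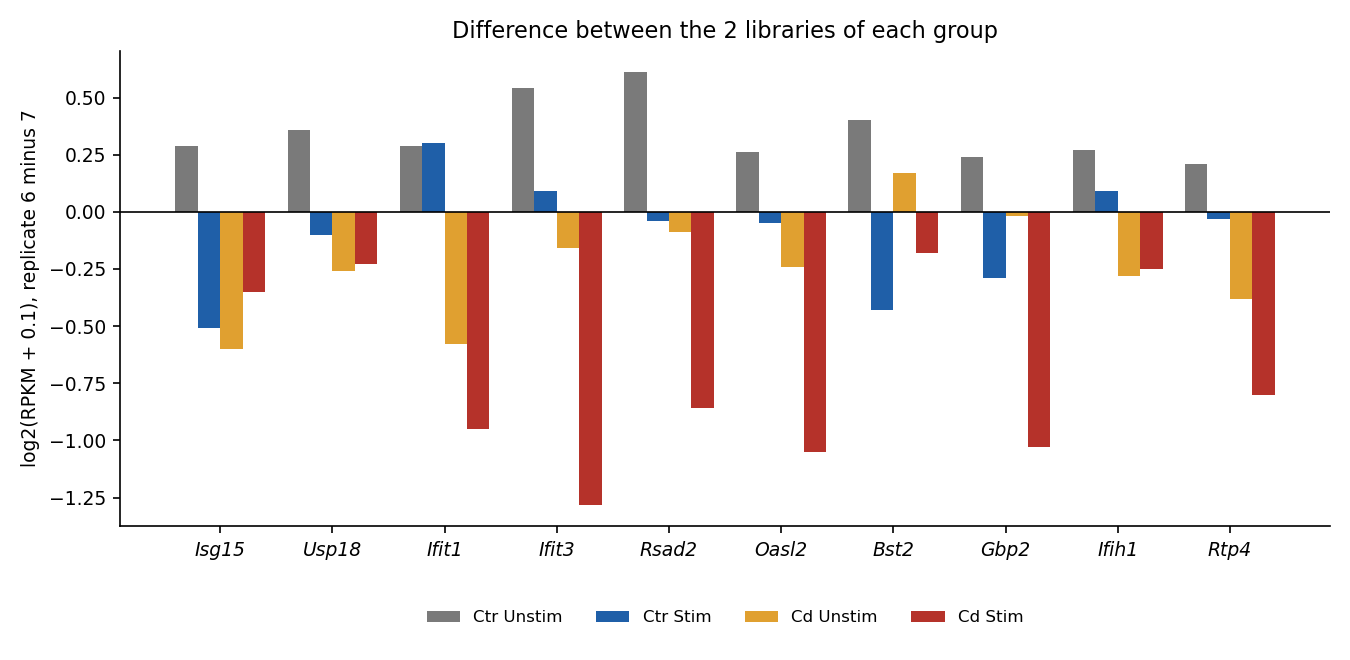
Difference on the log2(RPKM + 0.1) scale between replicate 6 and replicate 7 of each group, for each gene. The bars of Ctr Unstim (grey) are all above 0, and those of Cd Stim (red) are all below 0, down to -1.28 for Ifit3.

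Whether Cd and control offspring responded differently to stimulation was tested as an interaction. None of the 10 genes passed in limma at an adjusted p under 0.05, against 0.357% of the genes tested, and none had an unadjusted p under 0.05 in limma or limma voom. The differences ran from -0.70 on the log2 scale for Gbp2 (interval -1.65 to 0.25) to 0.12 for Isg15 (interval -0.68 to 0.93), with a median of -0.39. The smallest unadjusted p in limma was that of Usp18 (0.0999, adjusted p 0.542), and in limma voom that of Gbp2 (0.0665, adjusted p 0.464). Without Cd Stim replicate 6 the median was 0.02. The comparisons of Cd, of stimulation and of their difference share the same libraries, so their values for a gene are not separate evidence.

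Over the 8 libraries, the tested genes with a mean of at least 5 RPKM whose pattern was most like the mean of the 10 were Nin (Pearson r = 0.991), Zbp1 (0.987), Psmb9 (0.986), Xaf1 (0.985) and Ice2 (0.979). The points share the stimulation groups. Zbp1, a sensor of nucleic acids, and Psmb9, a subunit of the immunoproteasome, had log2 fold changes of -0.47 and -0.50 after stimulation in control offspring, and Xaf1 one of -1.0. Those of Nin (-0.24) and Ice2 (-0.10) were small, since the measure compares shape and not size.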

How the data were processed

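The 8 RNA-seq libraries, 2 per group, were grouped by the labels. The authors used Subread to align reads to mm10 and featureCounts to count them per RefSeq gene. Versions, strand and how multi-mapping reads were counted are not given in the sources used here. The deposited values are on a log2 scale, log2(RPKM + 1) + 0.0001 as read from the values, and were converted to RPKM. Whole reads were recovered, within a relative tolerance of 1e-07, for 17790 of 17794 genes above 0 in at least 2 libraries (99.98%). The totals were 15542732 to 25486791 reads per library.

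For the 12605 genes with a mean of at least 0.5 RPKM, limma 3.58.1 under R 4.3.3 was run on log2(RPKM + 0.1), with a mean for each of the 4 groups, a variance trend and 4 residual degrees of freedom, with Benjamini-Hochberg adjustment over all of them. The threshold for stimulation was a change of more than 2-fold with an adjusted p under 0.01, and for Cd and the interaction an adjusted p under 0.05. The script was tested on simulated data.

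The genes and lists were chosen with earlier results of these data known. Of the lists, up to 3 genes with the largest called rise and fall are named, besides ligands, receptors and STATs and the most abundant marker. Some genes that the rule would name are not reported here. Alternatives were 2 pseudocounts, 2 filters, 2 scalings, fits of the compared libraries alone, a replicate block, no trend, limma voom on recovered reads, and each library left out.

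Gene coordinates, promoters and overlaps came from RefSeq GRCm38.p6, the build of mm10. By gene span, Ifit1, Isg15, Usp18, Ifih1, Rtp4 and Gbp2 overlap another annotated gene, and without strand their reads cannot be told apart where exons overlap. Plots and tables were made with Python 3.11.15, pandas 2.3.3 and matplotlib 3.10.9.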

Additional observations from a re-analysis of the deposited data

How the results depend on the processing

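With each library left out in turn, the number of the 10 genes called after stimulation in control offspring ranged from 4 to 7 and the number called lower from 3 to 6, both lowest without Ctr Unstim replicate 6. A pseudocount of 1 RPKM also gave 4 and 3, since it shrinks changes of low genes. The other settings gave 6 or 7 genes in control offspring and 6 to 8 in Cd offspring, and called none of the 10 for Cd or the interaction. Leaving out libraries moved the median of the 10 genes on the log2 scale between -1.61 and -1.09 for stimulation in Cd offspring, -0.76 and -0.016 for Cd in stimulated cells, and -0.74 and 0.02 for the interaction. The extremes came from leaving out Cd Stim replicate 7 and Cd Stim replicate 6.

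No reversed value belonged to a called change. With libraries left out, Oasl2 ranged from -0.59 to 0.46 for stimulation in Cd offspring. For Cd in unstimulated cells the ranges were -0.37 to 0.20 for Ifit1, -0.28 to 0.26 for Ifit3, -0.49 to 0.13 for Rsad2, -0.30 to 0.10 for Bst2, -0.12 to 0.14 for Oasl2 and -0.14 to 0.23 for Rtp4. In stimulated cells they were -0.95 to 0.0010 for Ifit1, -1.25 to 0.033 for Ifit3, -0.45 to 0.056 for Isg15, -0.40 to 0.027 for Bst2, -0.98 to 0.074 for Oasl2 and -0.56 to 0.24 for Rtp4. For the interaction they were -0.87 to 0.085 for Ifit1, -1.24 to 0.042 for Ifit3, -0.17 to 0.42 for Isg15, -0.31 to 0.13 for Bst2, -0.99 to 0.061 for Oasl2 and -0.61 to 0.19 for Rtp4. For Cd in unstimulated cells Ifit3 was at 0.0070 after quantile normalization and Oasl2 at -0.0039 with median-of-ratios scaling. Quantile normalization moved the median of all genes after stimulation in control offspring from 0.070 to -0.033.

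Rtp4 lost its call in control offspring with a pseudocount of 1 RPKM (log2 -0.99), without a filter (adjusted p in limma 0.0128), without the trend (0.016) and with any library of the comparison left out, and in Cd offspring with the compared libraries alone (0.0126), without Cd Unstim replicate 7 (0.0182) and without Cd Stim replicate 6 (log2 -0.87). Ifit3 gained one in Cd offspring in limma voom (adjusted p = 0.00085) and without Cd Stim replicate 7 (adjusted p in limma 0.000416). The count of all genes called for Cd in unstimulated cells was 113, against 14 to 211 under other settings and 19 to 105 with a library left out. For the interaction it was 45, against 4 to 111 and 2 to 63, and for Cd in stimulated cells 0, against 0 to 9 and 0 to 3. The causes were not tested.

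Whether the numbers pair unstimulated with stimulated libraries could not be decided. Across genes, deviations from the group means of unstimulated and stimulated replicate 6 correlated at r = 0.064 in control and 0.0085 in Cd offspring. The other comparisons set control against Cd offspring, which are different mice (r = -0.11 to 0.012). With 2 libraries per group, an r near 0 does not exclude pairing. The main fit did not use the numbers as pairs. The replicate block was a term for the number shared by all 4 groups, and pairing by animal was not tested. With this block, 7 of the 10 genes were called in control and 7 in Cd offspring, and none for Cd or the interaction. Over all genes the block gave 76 calls for Cd in unstimulated cells. The intervals between Cd and control follow the spread between 2 libraries per group. That of Gbp2, with 5513 to 13021 reads in stimulated libraries of Cd offspring, was -1.19 to 0.15, and that of Isg15, with 39 to 58 reads there, was -0.77 to 0.37.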
